A study of Homo sapiens with 6 samples.

Results

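HERVH is a family of human endogenous retroviruses, remnants of germline infections that are now inherited as part of the genome. The 35 HERVH loci described here were chosen by measured values: the study lists at least 1 H3AcK9 differential peak, a peak whose read number differed between treated and untreated cells, at each of them. They are 35 of the 83 endogenous retroviral loci so listed, and the other 48 belong to other groups. Since treated and untreated cells were compared to choose them, their differences between these conditions are a description and no test of them is given. The locus numbers are the study's own.

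The cells were SKOV3, an established human ovarian carcinoma line, in its wild-type form. They were left untreated, or were exposed for 24 h to vorinostat or to romidepsin, each at 1 times its IC50. Both drugs inhibit histone deacetylases, the enzymes that take acetyl groups off histones. Chromatin carrying H3AcK9, histone 3 acetylated at lysine 9, was precipitated and sequenced with 1 ChIP sample and 1 input sample per condition. The result is 1 peak list for untreated cells and 2 lists for each drug. By the sample labels both lists of a drug come from 1 sample that was divided for sequencing, while the study elsewhere speaks of independent experiments. They are counted here as 1 sample, so their spread is taken as technical and differences between conditions have no replicates behind them. Where 1 value is given for a drug, it averages its lists. Neither romidepsin list has a peak on chromosome 13 or X. Therefore the 3 HERVH loci there have no romidepsin value and 32 loci remain for that drug. The number of reads behind a peak is unknown from the lists.

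A complete provirus has a long terminal repeat (LTR) at each end and an internal part between them. The 5′ LTR holds the promoter, and its R region begins the transcript. Just behind that LTR lies the primer binding site, where a cellular tRNA starts reverse transcription, and the H in HERVH stands for the histidine tRNA that was assigned this role. Copies of HERVH are numerous, and their LTRs can act as promoters of long noncoding RNAs, best known from human pluripotent stem cells. H3AcK9 is a mark of active promoters and enhancers.

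The sequences of the loci were read from hg38. The human tRNA-His gene TRH-GTG1-1 at chr1:146038044-146038115 (+ strand, hg38) is shown first, because the primer binding site is the reverse complement of its last bases, which are in capitals. The second line is that 18-base site, whose first 3 bases pair with the CCA added to every tRNA.
tRNA-His TRH-GTG1-1: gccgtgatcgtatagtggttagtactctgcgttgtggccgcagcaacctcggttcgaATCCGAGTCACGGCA
Primer binding site: TGGTGCCGTGACTCGGAT

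Most loci held the site that the family name refers to. They were already classed as HERVH, so this is a description and no test of the name. A primer binding site for tRNA-His with at most 3 mismatches followed an LTR copy in 24 of the 35 loci, with an exact match in 9 and a single mismatch in 9. An LTR copy was found in 32 loci and a pair in 24, with an interior of 3755 to 10368 bp between the paired LTRs. In the 13 loci whose ends align with each other, the LTRs of a locus were 85.7% to 99.3% identical (median 95.6%).

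The motif TATAAA occurred in 21 of the 24 paired 5′ LTRs, and it always began 125 to 140 bases before the LTR's end. In the last 300 bases of the 23 LTRs that are long enough it was present on the sense strand in 20, or 87.0%, and no further LTR had it on the other strand alone. Of 35116 RefSeq promoters of the same length, 250 bases before to 50 after the gene start, 7.33% held it on the gene's strand and 11.5% on either strand. A match is only a match of letters in this window. The LTRs are related copies of the same family, and their windows are placed differently from those of the promoters. They are therefore not independent matches, and nothing is read from the contrast with the promoters. The 5′ LTRs held 3 to 9 CpG dinucleotides each.

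The loci were 1832 to 11149 bp long, with a median of 6152 bp and 248524 bp in all, and 40.7% to 50.2% of their bases were G or C. By GENCODE 44, 10 lay in no annotated gene, 6 in an intron and 7 over an exon of a protein-coding gene, and 4 in an intron and 8 over an exon of long noncoding genes. An annotated transcript of a protein-coding gene, which need not be its main one, started inside or within 5 kb of 14 loci. In 4 loci the first 1000 bp held the start of an annotated transcript on the locus's own strand. These transcripts belong to CALB1, which encodes the calcium-binding protein calbindin (locus 2897), and UCA1, a long noncoding RNA first described in urothelial carcinoma (locus 4627). The others belong to the long noncoding genes ENSG00000286966 (locus 6123) and LINC02474 (locus 6196). Locus 5918 lies over HHLA3, a gene named for its association with a HERVH LTR. None of the 6 known HERVH transcripts that were looked up (ESRG, LINC-ROR, HHLA1, ABHD12B, LINC00458 and LINC01108) overlapped a locus.

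In untreated cells these loci were already acetylated. Untreated peaks covered 143762 of their 248524 bp, or 57.8%, in 80 peaks. The covered share of a locus ran from 0.493% to 100%, with a median of 65.5%, and 22 loci were covered over at least 50% of their length, beside 14.1% of all 6000-bp tiles of the genome with an untreated peak. The listing compared treated with untreated cells, so it used the untreated level too, and nothing is read from that count. 7 loci were covered from end to end (491, 513, 2673, 3090, 3651, 4736 and 6196), each by a single peak that ran past both ends. The widest untreated peak at a locus had a median width of 6177 bp and reached beyond the locus in 28 of 35. The 5 kb flanks were covered to a like extent, 57.5%. Within the loci, coverage was higher near both ends: the first 1000 bp were covered to 69.3% and the last 1000 bp to 61.8%. That order depends on the window, since the 5′ share minus the 3′ share was 7.45 percentage points with these windows and -6.78 points with windows of 500 bp.

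In bases, untreated coverage was highest at locus 4736, locus 5327 and locus 4627. Locus 4736, chr19:43825236-43833545 on the - strand in hg19, the build of all locus positions from here on, lies over an exon of LINC03078, and all of its 8310 bp were covered. Vorinostat left 5798 and 5258 bp in its lists and romidepsin 5745 and 5760 bp, so the drugs did not separate here. Locus 5327, chrX:28518567-28527432, lies in no annotated gene and had 8232 untreated bp and 6582 and 6558 bp after vorinostat. Locus 4627, chr19:15939671-15948114, spans UCA1 and had 7656 untreated bp. Its vorinostat lists held 7386 and 6168 bp and its romidepsin lists 7677 and 5300 bp. The lists of each drug were further apart at UCA1 than the drugs were, and the first romidepsin list lay just above the untreated value.

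Fewer bases of these loci lay under peaks with both drugs, in more and narrower pieces. Covered bases are widths of called peaks, so a lower value is not a measured loss of acetylation. At all 35 loci the vorinostat lists covered 97302 and 95100 bp against 143762 bp untreated, 0.669 of that value, while the number of peaks went from 80 to 207 and 204. At the 32 loci with values for both drugs, the untreated list covered 126386 bp, vorinostat 84735 and 82375 bp (0.661) and romidepsin 73967 and 67048 bp (0.558). Peaks at these loci numbered 73 untreated, 183 and 180 with vorinostat, and 181 and 185 with romidepsin. Fewer covered bases were also found elsewhere. At the 48 other listed loci the folds were 0.704 with vorinostat and 0.786 with romidepsin. Over all tiles of the genome with an untreated peak they were 0.775 and 0.880. Tiles without an untreated peak, where cover could not fall, were left out, which lowers the tile folds. Over the whole genome the untreated list covered 344 Mb and the vorinostat lists 309 and 296 Mb. The romidepsin lists, which lack chromosomes 13 and X, covered 325 and 309 Mb. Tiles with at least 50% of their bases covered in untreated cells had folds of 0.711 and 0.770. The listed loci were chosen for such differences and the tiles were not, so nothing is read from the contrast with the tiles. More and narrower peaks were also found elsewhere: over the whole genome the untreated list had 376666 peaks of a median 537 bp and the treated lists 884242 to 913199 of a median 203 to 219 bp, and at the 48 other listed loci peak number was 2.12 and 2.34 times the untreated one. The widest peak at a locus had a median width of 1667 and 1642 bp in the vorinostat lists (35 loci) and 976.5 and 960 bp in the romidepsin lists (32 loci). Joining the peaks of every list over gaps of 1000 bp or less gave folds of 1.01 with vorinostat and 0.904 with romidepsin. In the 5 kb flanks the same joining gave 1.08 and 1.16. The treated lists had more gaps to fill, so no account of the difference is drawn from these folds.

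Locus by locus, the mean of the vorinostat lists lay below the untreated value in 33 of 35 loci, beside 68.0% of all 6000-bp tiles of the genome with an untreated peak. The mean was at least 1.5-fold lower in 17 loci, beside 46.4% of the tiles, and at least 1.5-fold higher in 1, beside 17.9%. The romidepsin mean lay below untreated in 27 of 32 loci, beside 63.0% of the tiles. It was at least 1.5-fold lower in 21, beside 42.1%, and at least 1.5-fold higher in 1, beside 21.1%. Among tiles with at least 50% of their bases covered in untreated cells, as most of these loci had, 41.4% were past 1.5-fold fewer with vorinostat and 31.6% with romidepsin. The loci were listed for such differences, and tiles where cover could not fall were left out. Nothing is therefore read from these counts. The median fold was 0.668 with vorinostat (0.140 to 62.3) and 0.488 with romidepsin (0.160 to 47.8). All 4 treated lists lay below the untreated one at 25 of 32 loci, beside 46.7% of the tiles, and above it at 1, beside 17.7%.

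**Figure D1:**
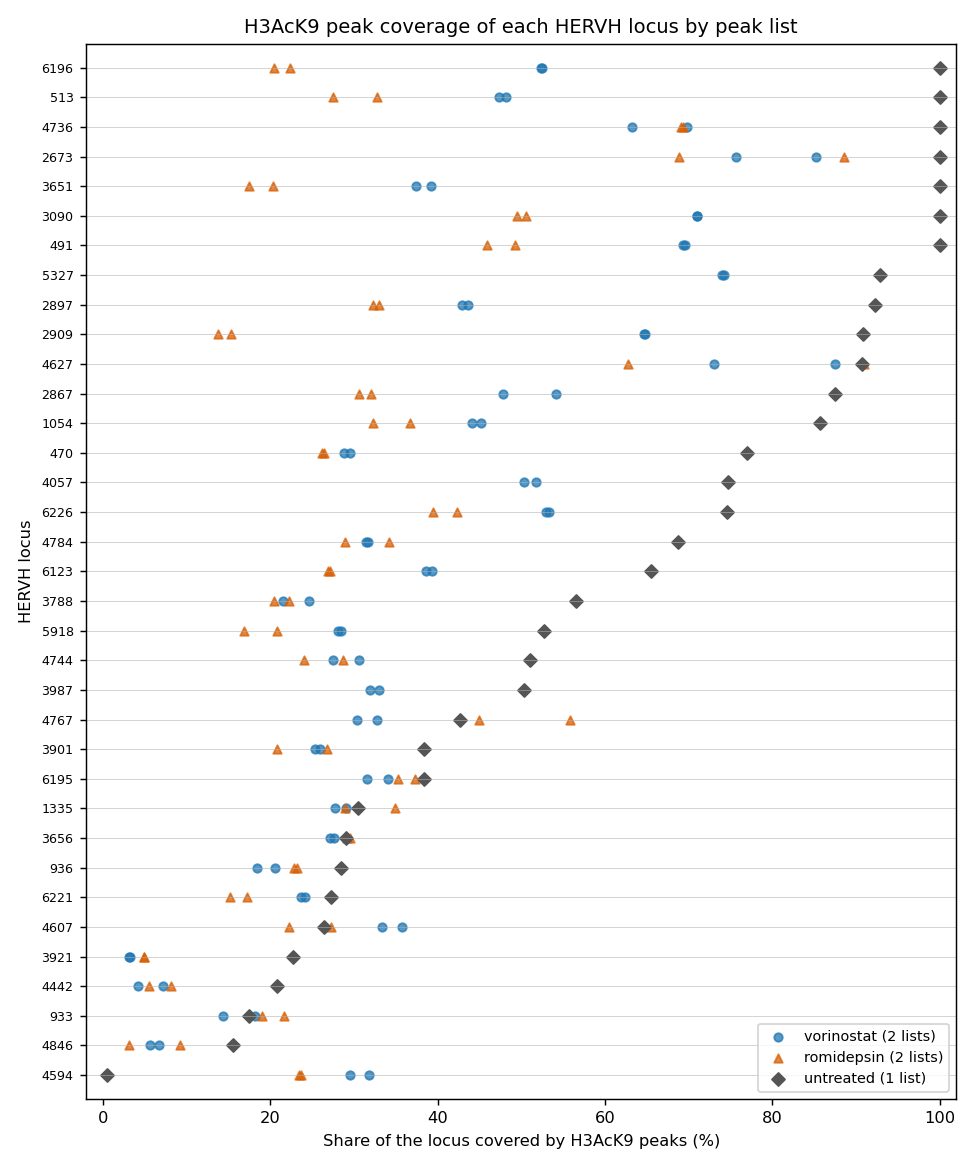
Share of each HERVH locus (rows, ordered by the untreated share) covered by H3AcK9 peaks, in percent, for the untreated list (diamonds), both vorinostat lists (circles) and both romidepsin lists (triangles); the 3 loci on chromosomes 13 and X have no romidepsin points. Treated points lie left of the diamond at most loci. Only at locus 4594, at the bottom with 0.493% untreated, does every treated point lie right of it. At a few other loci, such as locus 4607 and locus 4767, both points of a drug lie right of it.

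By fold, that is relative to untreated cells, vorinostat left least at locus 3921, locus 4442 and locus 470. Locus 3921, chr12:133466136-133474966, lies in an intron of CHFR, a ubiquitin ligase of a mitotic checkpoint. It had 2007 untreated bp, 275 and 287 bp with vorinostat and 429 and 429 bp with romidepsin. It is thus low with both drugs, and is 1 of the 6 loci at which both romidepsin lists lay above both vorinostat lists. Its 5′ LTR was covered over 100% of its bases in untreated cells, over 0% and 2.84% in the vorinostat lists and over 28.0% in both romidepsin lists. Locus 4442, chr17:32510526-32519699, over an exon of LINC01989, had 1914 untreated bp, 660 and 386 bp with vorinostat and 751 and 509 bp with romidepsin. Locus 470, chr2:12710023-12714469, in an intron of MIR3681HG, had 3424 untreated bp, 1315 and 1282 bp with vorinostat and 1164 and 1174 bp with romidepsin. At these 3 loci both drugs were far below untreated and, set against that distance, close to each other.

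By fold, romidepsin left least at locus 2909, locus 3651 and again locus 3921. Locus 2909, chr8:98187250-98192981, lies in no annotated gene, 25368 bp from CPQ, which encodes a carboxypeptidase. Its 5204 untreated bp compare with 3717 and 3708 bp after vorinostat and with 879 and 787 bp after romidepsin. This was the widest separation of the drugs among the 32 loci, with a romidepsin value 0.224 of the vorinostat value. Locus 3651, chr11:117681535-117683366, is the shortest locus and lies in introns of DSCAML1, which encodes a cell adhesion molecule, and of FXYD2, which encodes a regulatory subunit of the sodium pump. All of its 1832 bp were covered by an untreated peak of 28401 bp, with 686 and 719 bp left by vorinostat and 319 and 373 bp by romidepsin. Locus 6196, chr1:222139307-222144960, holds the start of a LINC02474 transcript at its 5′ end. It went from 5654 bp, its full length, to 2962 and 2966 bp with vorinostat and to 1159 and 1265 bp with romidepsin. Within it the 5′ LTR was fully covered in untreated cells and at 0 in all 4 treated lists. The 3′ LTR, also fully covered in untreated cells, kept 97.9% in both vorinostat lists and none in the romidepsin lists.

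A few loci kept or gained covered bases. Locus 4594, chr19:5548587-5553253, lies in no annotated gene, 4925 bp from TINCR. It was almost free of untreated peaks, with 23 bp at the edge of a single peak of 127 bp. Vorinostat peaks covered 1381 and 1486 bp of it and romidepsin peaks 1092 and 1105 bp, in 6 or 7 peaks a list, and it was the only locus above untreated in all 4 treated lists. Its folds of 62.3 and 47.8 rest on those 23 bp and say little beyond that. Of its 5′ LTR, the untreated list covered 5.22%, the vorinostat lists 46.0% and 41.7% and the romidepsin lists 9.75% and 11.6%. The first 1000 bp of its interior had no untreated peak, and were covered to 52.4% and 73.2% with vorinostat and to 39.9% in both romidepsin lists. The 5 kb downstream moved the other way, from 3077 bp to 453 and 866 bp with vorinostat and to 1902 and 2409 bp with romidepsin.

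Locus 4607, chr19:9650083-9661231, over an exon of ZNF426-DT, had 2948 untreated bp, 3985 and 3717 bp with vorinostat, and 3042 and 2486 bp with romidepsin. Its vorinostat lists lay above the untreated value and its romidepsin lists on both sides of it. Locus 4767, chr19:53131161-53139417, over an exon of the zinc finger gene ZNF83, showed the opposite order, with 3521 untreated bp, 2706 and 2503 bp with vorinostat and 4611 and 3708 bp with romidepsin. Locus 933, chr3:44382356-44391885, over an exon of TCAIM, had 1667 untreated bp, 1363 and 1738 bp with vorinostat and 2058 and 1808 bp with romidepsin. Locus 3656, chr11:121503275-121514200, over an exon of SORL1, which encodes a sorting receptor, stayed close to its 3174 untreated bp. It had 2960 and 3024 bp with vorinostat and 3182 and 3228 bp with romidepsin. In the study's list of loci with increased acetylation, locus 3656 stands under both drugs, and locus 4594 and locus 1335 under romidepsin only. Differential peaks compare read numbers and covered bases measure width, so the values here need not follow that list.

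The other loci that carry a transcript start at their 5′ end had less coverage with both drugs. Locus 2897, chr8:91101561-91108109, holds the start of an annotated CALB1 transcript, which need not be the main one. It had 6045 untreated bp, 2810 and 2855 bp with vorinostat and 2162 and 2112 bp with romidepsin. Locus 6123, chr1:183582345-183591578, holds the start of an ENSG00000286966 transcript. An exon of ARPC5, a subunit of the actin-nucleating Arp2/3 complex, is annotated there too. This locus also had 6045 untreated bp, and had 3631 and 3566 bp with vorinostat and 2480 and 2501 bp with romidepsin. At both loci romidepsin lay below vorinostat in each pair of lists. Of the loci on chromosome 13, locus 3987 (chr13:66711941-66721178, in no annotated gene) had 4644 untreated bp and 2951 and 3051 bp with vorinostat. Locus 4057 (chr13:109917438-109923463, over an exon of LINC03061) had 4500 untreated bp and 3034 and 3116 bp. The remaining 17 loci had folds of 0.396 to 0.929 with vorinostat and of 0.301 to 1.05 with romidepsin.

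Summed over the listed HERVH loci, romidepsin lay below vorinostat. It covered 0.844 times as many bases as vorinostat at the 32 loci, but 1.12 times as many at the 48 other listed loci and 1.13 times as many over all tiles with an untreated peak. Both romidepsin lists lay below both vorinostat lists in 16 of 32 HERVH loci, beside 26.1% of the tiles and 12 of the 48 other listed loci. They lay above both in 6 HERVH loci (933, 936, 3656, 3921, 4767 and 6195), beside 37.4% of the tiles and 22 of the other loci, and the lists interleaved in the remaining 10. The listing used each drug's difference from untreated cells, so the ratio of the drugs is not independent of how the loci were chosen, and nothing is read from its contrast with the tiles. With 1 sample per drug it is a difference between these samples. Locus 933, locus 6195, locus 6196 and locus 4736 lie within 10 kb of another listed locus, and locus 6195 and locus 6196 share an untreated peak of 15447 bp, so these loci are not independent of their neighbours.

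**Figure D2:**
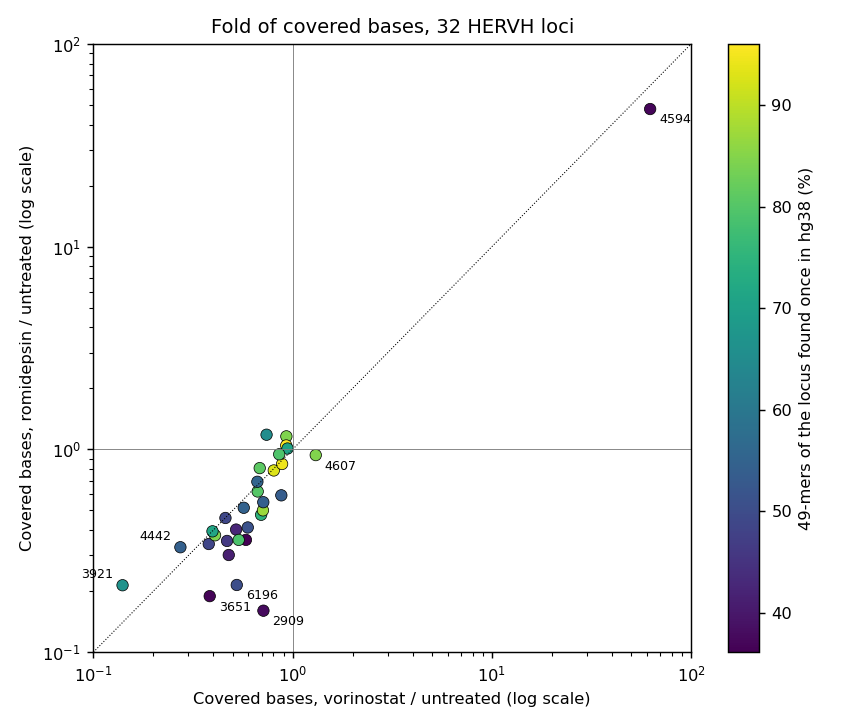
Covered bases with romidepsin over untreated (y axis) against vorinostat over untreated (x axis) at 32 HERVH loci, both on log scales, with each point coloured by the share of the locus's 49-mers that occur once in hg38; the dotted line marks equal folds. Most points lie below 1 on both axes, locus 2909 lies farthest below the dotted line, and locus 4594 stands alone at 62.3 and 47.8.

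The flanks kept more of their coverage than the loci. Those within 5 kb of the 32 loci kept 0.824 of their untreated coverage with vorinostat and 0.859 with romidepsin, against 0.661 and 0.558 within the loci. In the flanks romidepsin thus lay slightly above vorinostat, at 1.04 times its value. The loci were listed for differences from untreated cells and the flanks were not, so nothing is read from the contrast between them. Along the loci, the mean covered share in twentieths of the locus ran from 51.8% to 71.1% in untreated cells, from 22.4% to 51.1% with vorinostat and from 14.0% to 47.9% with romidepsin. In the 500-bp bins of the upstream flank the treated shares ran up to 66.9% and 64.9%, and both dropped at the locus's 5′ end. The untreated share dropped less there, from 73.1% in the last upstream bin to 62.2% in the first bin of the locus. Of the first 1000 bp, 68.9% was covered in untreated cells, 42.0% with vorinostat and 29.6% with romidepsin. For the last 1000 bp the shares were 66.1%, 44.9% and 40.1%, so the drugs were closer to each other there.

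The drop coincided with a change in the sequence itself. A 49-mer, as long as the tag size given to the peak caller, occurred only once in hg38 at 36.1% to 96.0% of the positions of a HERVH locus (median 60.9%), at a median of 95.3% of the flanks and at a median of 89.2% of the 40 other listed loci with hg38 coordinates. At unique positions of the 32 loci, 58.5% of bases were covered in untreated cells, 44.4% with vorinostat and 39.8% with romidepsin, which gives folds of 0.759 and 0.681. At repeated positions the shares were 52.2%, 23.6% and 15.4%, with folds of 0.452 and 0.295. The latter moved most with the settings, to 0.277 and 0.162 for peaks with a score of 1 or more and to 0.925 and 0.762 after joining across 1000 bp, where the folds at unique positions were 1.01 and 0.976. Both kinds of position thus lay closer together in untreated cells than with either drug. The fold at repeated positions was below that at unique positions in 30 of the 34 loci with both for vorinostat and in 26 of 31 for romidepsin. At the other listed loci this held in 30 and 27 of 40, and their folds were 0.697 and 0.755 at unique and 0.521 and 0.602 at repeated positions. Only exact matches of a 49-mer were counted, while the study's peak calling accepted alignments with some mismatches. A position called unique here may therefore still be ambiguous for a read. How reads with several equally good positions were placed is not given in the sources used here, and their part in these differences was not tested.

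At unique positions alone, romidepsin still lay below vorinostat, at 0.897 times its value against 0.652 at repeated positions. Of the named loci, locus 2909 kept its wide separation there, with folds of 0.878 for vorinostat and 0.234 for romidepsin, and so did locus 6196 (0.648 and 0.268). Locus 3921 remained low with both drugs (0.163 and 0.206). Locus 4736 went from folds of 0.665 and 0.692 over all its bases to 0.873 and 0.885 over its unique ones. Across loci, Spearman's rho between the share of unique 49-mers and the fold was 0.408 for vorinostat (35 loci) and 0.536 for romidepsin (32 loci), and -0.210 between that share and the untreated coverage. These are descriptions across loci that share the same samples and, for neighbouring loci, the same peaks.

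The proviral regions can be compared in the 21 loci outside chromosomes 13 and X with an LTR pair. The 5′ LTRs were covered to 66.4% in untreated cells, 31.4% with vorinostat and 23.3% with romidepsin (27.3% and 19.4% in its lists). Their pooled folds of 0.473 and 0.351 were the lowest of any region. Locus by locus the 5′ LTRs did not stand out among loci where the region held untreated peaks. The 5′ LTR was less covered in 12 of 17 such loci with vorinostat and in 14 with romidepsin. The first 1000 bp of the interior was less covered in 15 and 18 of 18. For the whole interior it was 15 and 18 of 20, and for the 3′ LTR 13 and 12 of 16. Of the 6000-bp tiles with an untreated peak, far longer than an LTR, 68.0% and 63.0% were less covered. The 3′ LTRs, which end the transcript, went from 62.2% to 36.0% and 27.9%. The first 1000 bp of the interior, which begin right behind the 5′ LTR, had the highest untreated share, 75.8%, and kept 49.8% and 33.0%. The whole interior, which holds the remains of the viral genes, went from 54.2% to 36.7% and 28.5%, with folds of 0.677 and 0.526. The share of unique 49-mers was 55.5% in the 5′ LTRs, 47.6% in the 3′ LTRs, 63.3% in the first 1000 bp of the interior and 57.1% in the whole interior, and its part in the differences between regions was not tested.

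**Figure D3:**
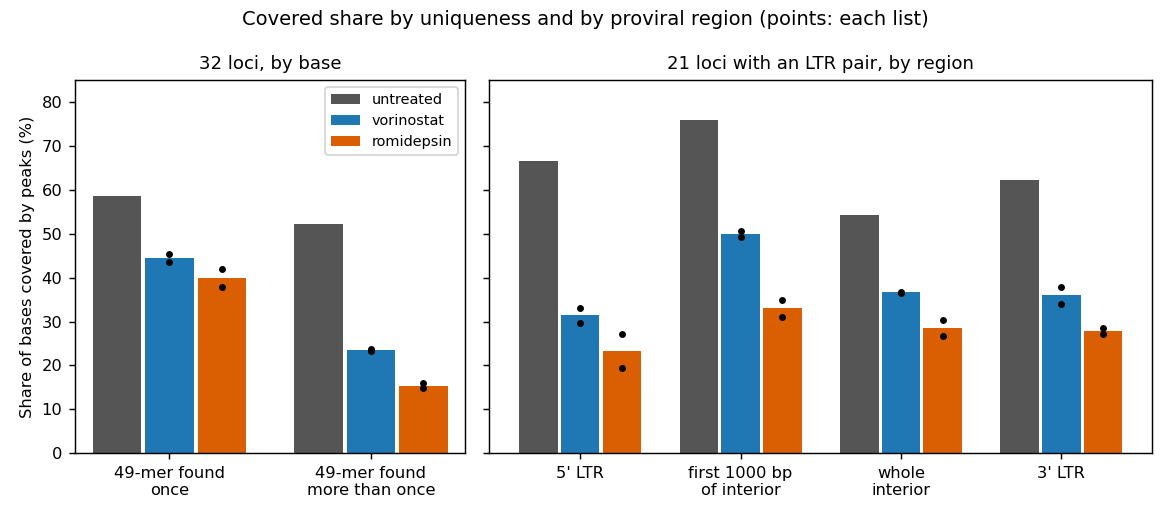
Share of bases covered by H3AcK9 peaks (%) in untreated cells (grey), with vorinostat (blue) and with romidepsin (orange); bars are the mean of the lists and black points each list of a drug. Left, 32 HERVH loci split by whether the 49-mer at a base occurs once or more often in hg38 (58.5% and 52.2% untreated, 39.8% and 15.4% with romidepsin); right, 4 proviral regions of 21 loci, in each of which the bars descend from untreated to vorinostat to romidepsin.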

How the data were processed

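Reads had been cleaned by the authors with SOAPnuke and mapped with SOAP2 or BWA, and MACS 1.4.2 called the peaks of each list. Drosophila chromatin was added as a spike-in, and the study does not say whether the lists were scaled by it. The deposited files hold positions in bp and a score per peak whose scale is not stated, used here only as a filter. The labels name hg38, but peak ends on chromosome 1 reach 249238565, beyond its hg38 length of 248956422, so the peaks were read as hg19. Locus lengths are the same in both builds, and offsets within a locus were carried over. Locus identities came from the study's supplement. No input list was used.

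Covered bases and peaks (minimum overlap 1 bp) were computed with Python 3.11.15, numpy 2.4.6 and pandas 2.3.3, tested on simulated data. LTRs were found with blastn 2.17.0+, and their sequences are not reported here. Named loci were the 3 with most untreated bases, the 3 lowest and highest folds per drug, and those above untreated in all 4 treated lists. Loci on chromosomes 13 and X and those with an annotated transcript start at the 5′ end were also named. The members and lists were chosen with earlier results of these data known. With 1 sample per condition no test was run.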

Additional observations from a re-analysis of the deposited data

How the results depend on the processing

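Every value rests on 1 sample per condition, and the lists give no read numbers, so precision is unknown. No paired analysis was possible because each condition has 1 sample and no test was made. Folds are given as vorinostat, then romidepsin. The cause of the changes below was not tested.

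When only scores from 1 upwards were kept, folds were 0.556 and 0.413 of covered bases, 2.50 and 2.33 of peak number and 0.632 and 0.641 in the flanks, and romidepsin over vorinostat was 0.745. With peaks at least 200 bp wide, vorinostat covered 0.627, peak numbers were 1.90 and 1.77, and flanks 0.797 and 0.823. Merging across 300 bp gave 0.750 and 0.643, peak numbers of 2.02 and 1.91, and flanks of 0.921 and 0.980. Merging across 1000 bp turned the vorinostat fold to 1.01, its unique-base fold to 1.01 and the flanks to 1.08 and 1.16. It left romidepsin at 0.904, peak numbers at 1.15 and 1.25, romidepsin over vorinostat at 0.924, and 6 and 11 loci past 1.5-fold fewer. Unique bases alone gave 0.763 and 0.681; the split by uniqueness and the ratio of the drugs were chosen after seeing the data. A threshold of 2 left 9 loci for vorinostat and 16 for romidepsin. No share of tiles stands beside these counts or those after merging, so nothing is read from them. Without loci near another, peak numbers were 2.49 and 2.44, and with at least 50% of a peak in the locus 3.21 and 3.24. Keeping chromosomes 13 and X at 0 gave romidepsin 0.490, 2.29 and, in the flanks, 0.796. Flanks of 2 kb gave romidepsin 0.806. End windows of 500 bp turned the 5′ minus 3′ difference to -6.78 percentage points.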
